A study of Drosophila melanogaster with 22 samples.

Results

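Ovarioles of 3-day-old virgin Drosophila melanogaster females were compared with those of 2-day-old females, with 3 libraries on each side out of 22 libraries in the whole series. All females were of the strain w1118, a white-eyed laboratory strain with no other allele stated, and received no treatment. They were kept at 25 °C, collected as virgins and aged 2 to 2.5 days or 3 to 3.5 days after eclosion. The tissue was the anterior ovariole, that is the germarium and egg chambers up to stage 8, dissected by hand from 30 to 50 ovarioles a sample, and polyA RNA was sequenced from 200 ng of total RNA. A sample is therefore a pool of ovarioles with germline and somatic cells together, and a lower level of a transcript cannot be told apart as fewer cells of a type or less RNA per cell.

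Each ovariole is a production line of egg chambers. Stem cells in the germarium supply germline cysts and the follicle cells that wrap them. In older chambers the follicle cells take part in yolk supply and then secrete the eggshell, first the vitelline membrane and then the outer chorion. The chorion genes sit in clusters on the X chromosome and on chromosome arm 3L that are amplified in late follicle cells, and the X-linked Cp36 and Cp38 are used earlier in chorion formation than the genes on 3L. In a virgin, finished eggs accumulate in the ovary with age. The comparison asks which transcripts of the anterior ovariole changed between the second and the third day of adult life.

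Gene counts per library were 9781870, 2064644 and 1220044 in day 2 replicates 1, 2 and 3, and 1146915, 4126054 and 2573634 in day 3 replicates 1, 2 and 3. A count of 3 corresponds to 0.307 to 2.62 CPM, counts scaled to a library total of 1000000. Libraries of 2 kinds were present on both days. Day 2 replicate 1 and day 3 replicate 2 held 31 and 19 counts of the ERCC spike-in RNAs, synthetic transcripts added during library preparation, while the other 4 libraries held 25577 to 280197. Both libraries low in spike-in put 2.55 to 2.72% of gene counts on the mitochondrial genome, against 0.536 to 1.02% in the other 4, and correlated more closely with each other (0.978 across genes, which are not independent replicates) than any other pair. The first principal component, with 45.4% of the variance, separated them from the rest. Having under 100 spike-in counts was therefore a block in the fit, and values within the 4 libraries with spike-in are given for most of the called genes and for some gene lists. The tissue label was met by germline and somatic markers. The germline gene osk ranged from 1892 to 2054 CPM and the somatic gene tj from 288 to 512 CPM over the 6 libraries. Summed over 22 marker genes, gut RNA ranged from 3.99 to 4.85 CPM on day 2 and from 2.27 to 8.81 CPM on day 3.

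Few transcripts passed the test of day 3 against day 2. With edgeR's quasi-likelihood test and Benjamini-Hochberg adjustment, 12 of 6927 genes tested passed an adjusted p of 0.05 (0.173%). Of these, 10 were higher on day 3 (0.144%) and 2 were lower (0.0289%). At an unadjusted p of 0.05 there were 297 genes (4.29%), 203 of them higher (2.93%) and 94 lower (1.36%). The median log2 change of all genes was -0.02. For 5509 genes (79.5%) the 95% interval of the change lay within 2-fold in either direction, and 129 genes had an estimate past 2-fold, 90 of them higher and 39 lower. Of changes simulated for this comparison among 6927 genes, 66% of those of 2-fold and 94% of those of 4-fold were called. Of the 6727 genes simulated without a change 0.149% were called. This simulation and that of the interaction below held 100 changed genes of each size, more than were called in the data. Both took the spread of each gene from the fit to these libraries, so recovery in the data may differ. DESeq2 called 33 genes (0.476%), among them 11 of the 12. Below, a called gene is one that passed edgeR's test, and calls by DESeq2 are named as such. With 0.173% of all genes called, a list without a called gene is no result about its members. Medians are given for the gene lists as descriptions. Of the 42 lists with 3 or more genes tested, the median changed sign under at least 1 of the alternatives in 27.

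**Figure D1:**
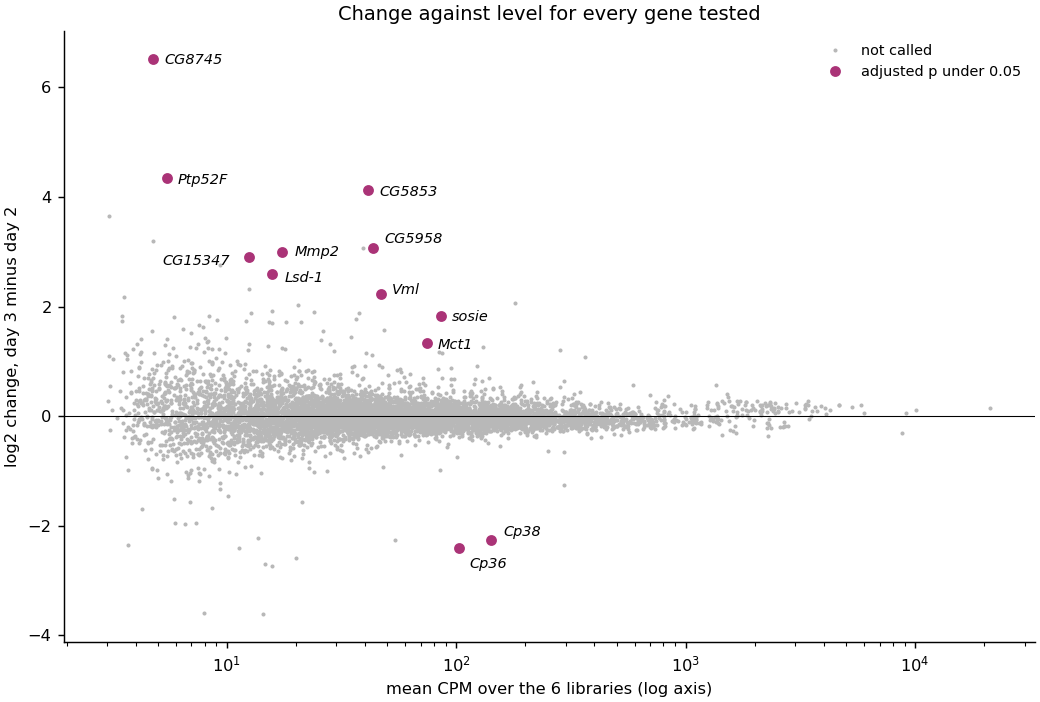
The log2 change from day 2 to day 3 (y axis) is plotted against the mean CPM over the 6 libraries (x axis, log scale) for the 6927 genes tested. Grey points are genes not called and purple points the 12 genes with an adjusted p under 0.05; 10 of these lie above the line at 0 and 2, Cp36 and Cp38, below it.

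In all 12 called genes the 3 libraries of day 3 lay apart from the 3 of day 2, as they did in 447 of the 6927 genes tested (6.45%). Within the 4 libraries with spike-in all 12 had the same sign and an unadjusted p under 0.05, as had 264 of 6697 genes (3.94%), but none passed the adjusted threshold there, where the smallest adjusted p over all genes was 0.120. The log2 changes there were 2.42 for Mmp2, 4.19 for Ptp52F, 2.44 for Lsd-1, 2.28 for Vml, 1.75 for sosie, -2.40 for Cp36 and -2.06 for Cp38. For CG5853, CG5958, CG15347 and Mct1 they were 4.10, 2.77, 3.02 and 1.25. The pair of libraries without spike-in also had the same sign in 12 of 12 genes. These values are part of the comparison that chose the genes and are no independent check. Leaving out either library without spike-in ended all 12 calls, because the block then takes up the remaining library of that kind and leaves 2 libraries a side. Without the block 2 of the 12 were called, CG8745 and Lsd-1.

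**Figure D2:**
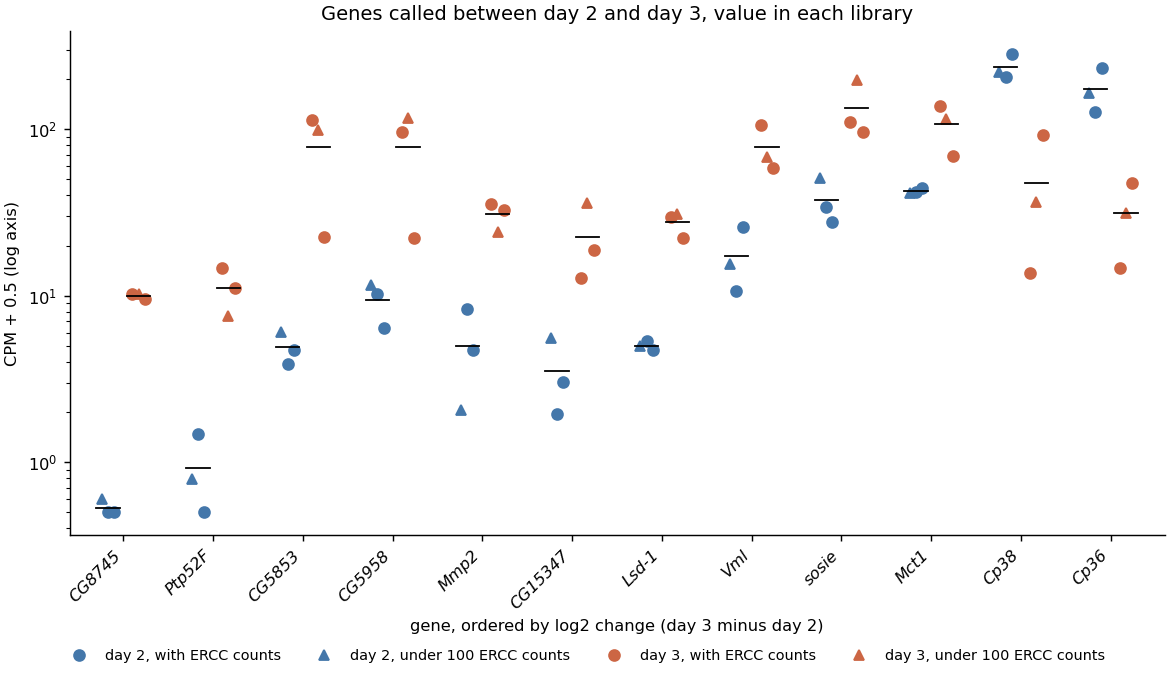
Expression of the 12 called genes in each library is shown as CPM plus 0.5 on a log axis, blue for day 2 and orange for day 3. Triangles mark the 2 libraries with under 100 spike-in counts, circles the other 4, and black lines the mean of 3 libraries; in every gene the points of the 2 days are separate.

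The smallest adjusted p belonged to sosie (FBgn0039232, 3R:24833952-24840488, plus strand), which encodes a membrane protein needed for the follicle epithelium and for egg chamber formation. Its level was 50.7, 33.5 and 27.0 CPM in the libraries of day 2 and 110, 197 and 95.1 CPM in those of day 3. Every library of day 3 was above every library of day 2, and day 3 replicate 2 was the highest. The log2 change was 1.83 ± 0.17 (SE; edgeR adjusted p = 0.000715), a 3.55-fold rise. Without day 2 replicate 3 the fit kept only 2 of the 12 genes, and sosie was 1 of them. It shares part of its span with the annotated RNA CR45216 on the same strand.

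Mmp2 (FBgn0033438, 2R:9611139-9683858, minus strand) encodes a matrix metalloproteinase, an enzyme that cuts extracellular matrix and acts in the rupture of mature follicles at ovulation. It rose from 1.56, 7.76 and 4.22 CPM on day 2 to 35.2, 23.8 and 32.2 CPM on day 3. The lowest library of day 3 was above the highest of day 2, and the log2 change was 3.00 ± 0.40 (SE; edgeR adjusted p = 0.00625). Ptp52F, a receptor tyrosine phosphatase (FBgn0034085, 2R:16171112-16178307), had 3, 2 and 0 counts on day 2 and 16, 28 and 28 counts on day 3. No library of day 2 passed 0.970 CPM, whereas those of day 3 held 7.01 to 14.1 CPM. The ratio of summed counts, scaled for library size and without the block, was 25.1 with a 95% counting interval of 10.3 to 79.5. The fit with the block gave a log2 change of 4.35 (edgeR adjusted p = 0.0172).

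CG8745 (FBgn0036381, 3L:13860027-13866905), predicted to encode an enzyme of the aminotransferase family, was nearly absent on day 2. It had 1, 0 and 0 counts in the libraries of day 2 and 11, 39 and 24 counts in those of day 3. The level on day 3 was even over the libraries, at 9.69, 9.76 and 9.10 CPM. The ratio of summed counts, scaled for library size and without the block, was 129 with a 95% counting interval of 22.4 to 5156. The fit with the block gave a log2 change of 6.52 (edgeR adjusted p = 0.00625). Its mean over the 6 libraries was below the 5 CPM set for named genes, so it was singled out after its values were seen.

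Lsd-1, the perilipin that coats lipid droplets (FBgn0039114, 3R:23763857-23766662), rose from 4.47, 4.85 and 4.22 CPM on day 2 to 29.1, 30.5 and 21.6 CPM on day 3. The libraries agreed closely within a day and did not overlap between days, with a log2 change of 2.59 ± 0.33 (SE; edgeR adjusted p = 0.00625).

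CG5853 (FBgn0032167, 2L:9940773-9947648), predicted to encode a transporter of the ABCG family, was at 5.54, 3.40 and 4.22 CPM on day 2 and at 114, 98.8 and 21.98 CPM on day 3. CG5958 (FBgn0031913, 2L:7430530-7433516), predicted to carry a CRAL-TRIO lipid-binding domain, was at 11.1, 9.70 and 5.91 CPM on day 2 and at 95.2, 117 and 21.6 CPM on day 3. In both genes day 3 replicate 3 stood low among its group and yet above every library of day 2. The log2 changes were 4.12 ± 0.54 for CG5853 and 3.07 ± 0.47 for CG5958 (SE; edgeR adjusted p = 0.00625 and 0.0172). Replicate 3 was the lowest library of day 3 in 7 of the 10 genes that rose. Without it 79 genes were called in place of 12, among them all 12.

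Mct1, a monocarboxylate transporter (FBgn0023549, X:2189188-2205373), rose least of the 10, from 42.0 ± 1.65 to 107 ± 34.7 CPM (SD, n = 3 on each day). Its libraries were at 40.95, 41.2 and 43.9 CPM on day 2 and at 137, 114 and 68.6 CPM on day 3. The log2 change was 1.33 ± 0.23 (SE; edgeR adjusted p = 0.0494), just inside the threshold. CG15347 (FBgn0030040, X:8458494-8460898), a gene with no role given here, rose from 5.06, 1.46 and 2.53 CPM to 12.3, 35.5 and 18.2 CPM, a log2 change of 2.90 ± 0.39 (SE; edgeR adjusted p = 0.00625).

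The eggshell genes did not move as 1 group. Both genes that fell encode chorion proteins of the X-linked cluster, and the only vitelline membrane gene that was called rose. Cp36 (FBgn0000359, X:8479319-8480523) was at 165, 126 and 232 CPM on day 2 and at 14.1, 31.0 and 47.0 CPM on day 3. Cp38 (FBgn0000360, X:8481837-8483311) was at 221, 206 and 282 CPM on day 2 and at 13.2, 36.0 and 92.5 CPM on day 3. For both genes the highest library of day 3 was below the lowest of day 2. The log2 changes were -2.40 ± 0.31 and -2.25 ± 0.39 (SE; edgeR adjusted p = 0.00625 and 0.0494), falls to 0.189 and 0.210 of the level on day 2. With DESeq2 the adjusted p was 0.00599 for Cp36 and 0.477 for Cp38, so the fall of Cp38 was called by edgeR alone. Without day 3 replicate 3, the highest of its group, the log2 change of Cp38 was -3.11.

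The 5 X-linked chorion genes tested, which lie between X:8470888 and X:8483311, all had negative estimates. Their median of -2.25 is the estimate of Cp38 itself. Their summed level was 531, 362 and 567 CPM on day 2 and 41.4, 81.6 and 164 CPM on day 3, with no overlap. Most of this sum in every library came from Cp36 and Cp38, the called genes. It is therefore no separate result about the Cp7F genes, and only 2 of the 5 genes were without overlap between days. Cp7Fc was at 71.7, 6.79 and 25.3 CPM on day 2 and at 4.41, 7.76 and 3.79 CPM on day 3. Its groups overlapped through day 2 replicate 2, and its adjusted p was 0.0685 by edgeR and 0.00225 by DESeq2. The estimates of Cp7Fa and Cp7Fb were -1.19 and -1.56, neither of them called, and their libraries overlapped between days. Cp36, Cp38 and the Cp7F genes overlap CG33223, annotated on the opposite strand, and the strand setting of the counting is not stated in the labels.

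The sum of the 4 chorion genes on 3L did not separate the days. Their summed level was 506, 1332 and 195 CPM on day 2 and 305, 420 and 440 CPM on day 3, so that the libraries of day 2 enclosed those of day 3. Cp15 was at 377, 685 and 138 CPM on day 2 and at 231, 305 and 24.3 CPM on day 3, with an estimate of -1.27 ± 0.65 (SE; edgeR adjusted p = 0.996). Cp16, Cp18 and Cp19 had estimates of -0.28, -0.99 and 0.07, and each overlapped between days. Day 2 replicate 2 and day 3 replicate 3 were the high libraries for Cp16 and Cp19. In Cp19 they stood at 313 and 268 CPM, while the other 4 libraries held 12.7 to 25.5 CPM. Of the 14 genes listed for the chorion, 12 were tested, 2 were called lower (beside 0.0289% of all genes) and none higher, and the median log2 change was -1.23 beside -0.02 for all genes tested. That median was -1.73 without day 3 replicate 3 and -0.49 without day 2 replicate 2. At an unadjusted p of 0.05, 6 were lower and 1, mfas, was higher, beside 1.36% and 2.93% of all genes.

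**Figure D3:**
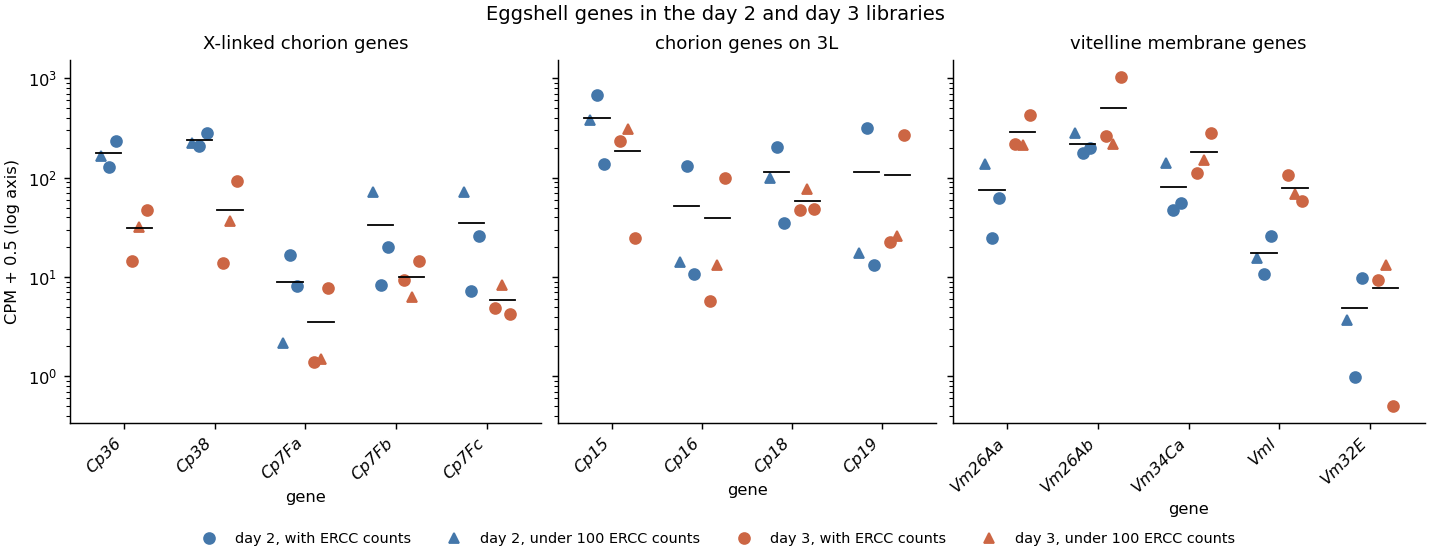
Expression of eggshell genes in each library is shown as CPM plus 0.5 on a log axis, blue for day 2 and orange for day 3, with triangles for the 2 libraries with under 100 spike-in counts and black lines for the mean of 3 libraries. Cp36 and Cp38 are lower in all 3 libraries of day 3, the genes on 3L overlap, and Vml and Vm26Aa are higher in all 3 libraries of day 3.

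The vitelline membrane gene that rose was Vml (FBgn0085362, X:2275822-2277781). Its level was 15.0, 10.2 and 25.3 CPM on day 2 and 106, 68.1 and 58.4 CPM on day 3. All libraries of day 3 were above those of day 2, with a log2 change of 2.23 ± 0.31 (SE; edgeR adjusted p = 0.00705). Vm26Aa, a structural vitelline membrane protein, was at 136, 24.3 and 62.5 CPM on day 2 and at 216, 211 and 430 CPM on day 3. The groups did not overlap, but the estimate of 2.07 ± 0.45 was not called (SE; edgeR adjusted p = 0.138). In the 4 libraries with spike-in its estimate was 3.00, against 0.63 between the libraries without spike-in.

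The other structural genes Vm34Ca and Vm26Ab had estimates of 1.27 and 1.07, and their libraries overlapped between days. Vm26Ab owed its high mean on day 3 to replicate 3, at 1040.3 CPM beside 263 and 217.5 CPM in the other libraries of that day. Genes that modify or pattern the vitelline membrane had estimates closer to 0, of 0.05 for fs(1)N, -0.23 for fs(1)M3, -0.01 for clos and -0.04 for ndl. Of the 16 genes of the vitelline membrane list that matched the annotation, 11 were tested, 1 was called higher (beside 0.144% of all genes) and none lower. The median log2 change was 0.51, and 8 of the 11 estimates were positive, beside 47.3% of all genes tested. The median was 0.27 in the 4 libraries with spike-in and 0.15 without day 3 replicate 3. The dissection aimed at chambers up to stage 8, while the chorion genes are known for their use in older chambers. The summed level of the chorion list was 971 to 1837 CPM on day 2 and 483 to 784 CPM on day 3. Whether this RNA came from older chambers was not tested, nor was the part of such chambers in any of the called genes.

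Yolk and yolk uptake showed no called gene among 7 tested, beside 0.173% of all genes tested. Yp1 was at 65.8, 86.4 and 149 CPM on day 2 and at 106, 143 and 170 CPM on day 3, with an estimate of 0.58 ± 0.25 (SE; edgeR adjusted p = 0.996). The summed level of Yp1, Yp2 and Yp3 was 397 ± 96.4 CPM on day 2 and 495 ± 222 CPM on day 3 (SD, n = 3 each), a difference within the spread. The yolk receptor gene yl had an estimate of 0.03 ± 0.11 (SE).

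Genes of the mature follicle, in a list made after values were seen, went with Mmp2 only in part. The transcription factor gene sim, which acts in the last maturation of follicle cells, was at 7.78, 13.6 and 8.45 CPM on day 2 and at 37.9, 38.0 and 20.8 CPM on day 3. The libraries did not overlap, and its estimate was 1.73 ± 0.35 (SE; edgeR adjusted p = 0.0858), which was called by DESeq2 (adjusted p = 0.00750) and not by edgeR. Of 12 listed genes 9 were tested, and the median was 0.05. The octopamine receptor genes Oamb and Octbeta2R, which act in ovulation, were too low to be tested, at 0.845 to 9.22 CPM and 0 to 4.85 CPM over the 6 libraries. Timp, which encodes the inhibitor of matrix metalloproteinases, had an estimate of 0.11 ± 0.25 (SE). No estimate among peb, ttk, ftz-f1, NFAT and Hr39 exceeded 0.10 in either direction.

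The other genes with the smallest p-values on the high side were MtnA, MFS14 and CG13868. None was called by edgeR, while DESeq2 called all 3, with adjusted p of 0.00227, 0.00643 and 0.00473. MtnA, a metallothionein that binds metal ions, was at 6.81, 10.2 and 8.45 CPM on day 2 and at 20.3, 49.8 and 27.3 CPM on day 3 (estimate 2.03 ± 0.36 (SE), edgeR adjusted p = 0.0515). MFS14, a transporter of the major facilitator family, had means of 25.5 ± 6.15 and 55.7 ± 5.23 CPM on days 2 and 3 (SD, n = 3 each; edgeR adjusted p = 0.0775). CG13868 had means of 13.1 ± 4.25 and 39.1 ± 9.65 CPM (SD, n = 3 each; edgeR adjusted p = 0.0775). In each of these 3 genes the libraries did not overlap between days.

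On the low side, 10 further genes had the smallest p-values without being called by edgeR. DESeq2 called 5 of them, with adjusted p of 0.00225 for Cp7Fc, 0.000153 for yellow-g, 0.00480 for Arc1, 0.00599 for CG4009 and 0.0331 for CG11381. yellow-g, a member of the yellow family, was at 25.5, 6.31 and 48.2 CPM on day 2 and at 1.76, 3.00 and 1.14 CPM on day 3, an estimate of -3.61 ± 0.69 (SE; edgeR adjusted p = 0.0775). Its libraries did not overlap, and those of day 2 differed by several fold among themselves. yellow-g2 was at 20.6, 0 and 30.4 CPM on day 2 and did not pass the filter on low counts. Arc1, which encodes a capsid-like protein, had the least spread of these genes. It was at 311, 304 and 301 CPM on day 2 and at 201, 187 and 207 CPM on day 3, an estimate of -0.63 ± 0.13 (SE; edgeR adjusted p = 0.0858). The remaining 8 were Cp7Fc, CG15570, CG4009, CG11381, CG17323, CG13114, Chrac-16 and CycE. Of these, Cp7Fc and CG15570 are also in the chorion list. CG4009 is predicted to encode a haem peroxidase and CG17323 a UDP-glycosyltransferase, and Chrac-16 belongs to a chromatin accessibility complex. CycE, which encodes the cyclin that starts DNA replication, was at 185, 160 and 203 CPM on day 2 and at 149, 114 and 115 CPM on day 3, an estimate of -0.55 ± 0.16 (SE; edgeR adjusted p = 0.542).

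Germline gene groups gave no called gene. None passed in the lists for germline stem cells and cysts (21 tested), oocyte mRNAs and their localization (27), the piRNA pathway (28) or meiosis (25), where 0.173% of all genes were. The medians were -0.07, 0.00, 0.03 and -0.07 (0.07 for meiosis in the 4 libraries with spike-in), and the 95% interval lay within 2-fold for 18, 27, 25 and 18 of these genes. osk had an estimate of -0.07 ± 0.11, vas -0.22 ± 0.14, piwi 0.06 ± 0.14 and bam, the switch for cyst differentiation, -0.47 ± 0.32 (SE). c(3)G, a synaptonemal complex gene, stood apart in 2 libraries. It was at 26.9, 18.4 and 26.2 CPM on day 2 and at 110, 88.3 and 19.3 CPM on day 3, so that day 3 replicate 3 fell among the libraries of day 2 (estimate 1.57 ± 0.46 (SE), edgeR adjusted p = 0.570).

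Signalling and hormone lists had no gene called by edgeR, beside 0.173% of all genes tested. Notch, JAK-STAT, BMP, and Hedgehog and Wnt signalling had none among 18, 11, 15 and 25 tested, with medians of -0.08, 0.09, 0.09 and 0.03. The Notch median was -0.19 in the 4 libraries with spike-in. Dl, the Notch ligand, had an estimate of -0.33 ± 0.14 and ken, a transcriptional repressor linked to the JAK-STAT pathway, of 0.35 ± 0.14 (SE), with edgeR adjusted p = 0.996 for both. Among genes for ecdysone synthesis and turnover, Cyp18a1, which inactivates ecdysteroids, was at 16.1, 18.9 and 21.97 CPM on day 2 and at 67.0, 55.6 and 29.6 CPM on day 3. It did not overlap between days, and it was called by DESeq2 (adjusted p = 0.0106) but not by edgeR (estimate 1.44 ± 0.30 (SE), adjusted p = 0.105). In the ecdysone response, the nuclear receptor gene Hr4 had an estimate of 1.31 and vri of -0.57, neither called. In the insulin and TOR list no gene of 26 was called; the insulin-like peptide gene Ilp6 had an estimate of 1.22 ± 0.42 and Thor, the translation inhibitor 4E-BP, of 0.87 ± 0.33 (SE).

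In the lipid list Lsd-1 was the 1 called gene of 20 tested, beside 0.144% of all genes called higher, and 17 of the 20 estimates were positive, beside 47.3% of all genes tested. FASN1, a fatty acid synthase, was at 402, 504 and 516 CPM on day 2 and at 1011, 551 and 566 CPM on day 3 (estimate 0.57 ± 0.18 (SE), edgeR adjusted p = 0.707). SREBP, the transcription factor of lipid synthesis, had an estimate of 0.44 ± 0.14 (SE; edgeR adjusted p = 0.707). The libraries of FASN1 and SREBP did not overlap between days. Lsd-2 and Jabba, which encode the abundant lipid droplet proteins of the ovary, had estimates of 0.16 and 0.03. Lsd-1 is also a marker in the fat body list, of which 15 genes were matched and 5 tested. That list summed to 478 to 645 CPM on day 2 and 675 to 1151 CPM on day 3, with Lsp2, a defining storage protein gene, at 0 to 0.778 CPM and 0 to 1.25 CPM. FASN1 is also in the fat body list and made up most of its sum in every library. Haemocyte markers summed to 337 to 402 CPM and 406 to 598 CPM, with the defining gene Hml at 1.26 to 3.88 CPM and 0.379 to 3.52 CPM. Of these markers the ferritin gene Fer1HCH was called by DESeq2 alone (adjusted p = 0.0247). Fer1HCH made up most of the haemocyte sum in every library, and its own libraries overlapped between days. The part of fat body or blood cells in the lipid genes was not tested.

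**Figure D4:**
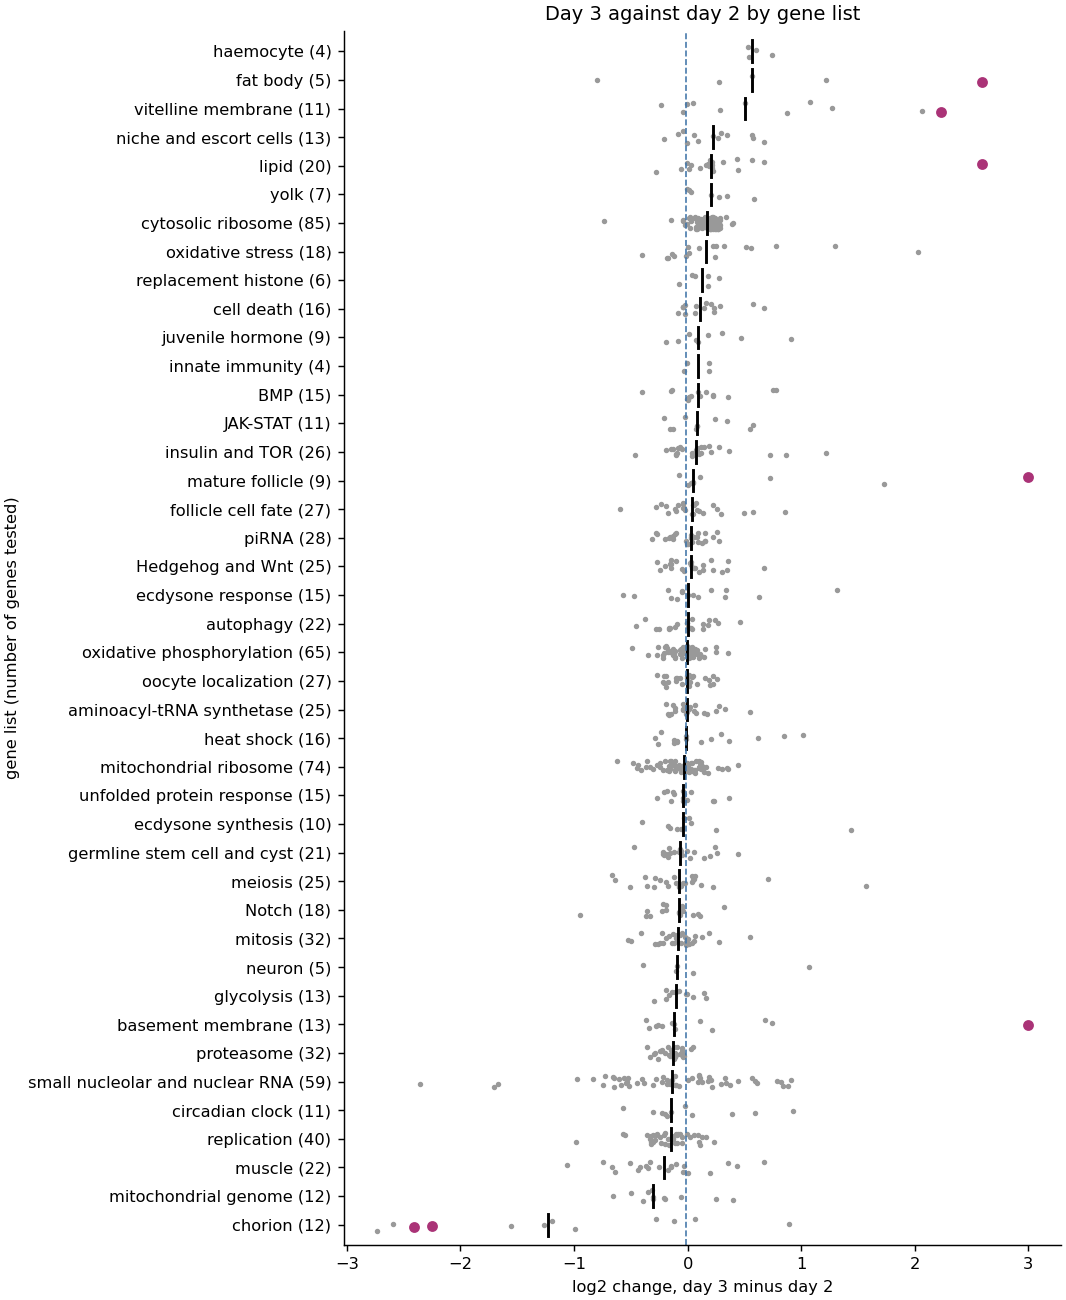
Each row is a gene list with at least 3 genes tested, and each point the log2 change of a gene from day 2 to day 3 (x axis). Black bars are list medians, purple points the called genes and the dashed line the median of all 6927 genes; the chorion list lies lowest, at -1.23.

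Growth and housekeeping lists had medians close to 0 and no called gene, beside 0.173% of all genes tested. Of 85 cytosolic ribosomal protein genes tested, 79 had positive estimates, with a median of 0.17. In the 4 libraries with spike-in that median was 0.05. RpL11 was at 1346, 1232 and 1282 CPM on day 2 and at 1475, 2411 and 1373 CPM on day 3, and only day 3 replicate 2 stood far out. Proteasome subunits had 30 of 32 negative estimates with a median of -0.13, and replication factors 32 of 40 with a median of -0.15. In the 4 libraries with spike-in these medians were -0.16 and -0.08. Oxidative phosphorylation (65 tested), mitochondrial ribosome (74) and glycolysis (13) had medians of 0.00, -0.03 and -0.10, and that of glycolysis was 0.05 in the 4 libraries with spike-in. Heat shock genes had a median of -0.01 over 16 tested, and DnaJ-1, a cochaperone gene, had an estimate of 0.62 ± 0.22 (SE; edgeR adjusted p = 0.857).

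Somatic lists gave Mmp2 as the 1 called gene, in the basement membrane list of 13 tested, beside 0.144% of all genes called higher. The median of that list was -0.12 and, without day 3 replicate 3, 0.18. LanB2, a laminin subunit gene, was at 360, 720 and 705 CPM on day 2 and at 467, 402 and 475 CPM on day 3, with an estimate of -0.34 ± 0.15 (SE). Muscle genes of the ovariole sheath had a median of -0.21 over 22 tested and none called; Act57B, an actin gene, had an estimate of -0.74 ± 0.25 and Mhc of -0.44 ± 0.22 (SE). Follicle cell fate genes had a median of 0.03 over 27 tested and niche and escort cell genes of 0.22 over 13. None was called in these lists or in the muscle list, beside 0.173% of all genes tested. The summed muscle level was 1629 to 3138 CPM on day 2 and 1862 to 3264 CPM on day 3.

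By edgeR no gene was called in the lists for stress, immunity and basic functions, while DESeq2 called MtnA of the oxidative stress list. Over all genes tested the shares called were 0.173% by edgeR and 0.476% by DESeq2. Medians were 0.16 for oxidative stress (18 tested), 0.09 for innate immunity (4), 0.00 for autophagy (22), 0.11 for cell death (16), -0.04 for the unfolded protein response (15) and -0.08 for mitosis (32). hid, a cell death activator, was at 17.8, 30.6 and 45.6 CPM on day 2 and at 67.0, 40.0 and 33.0 CPM on day 3, and its groups overlapped (estimate 0.67 ± 0.30 (SE), edgeR adjusted p = 0.996). Neuronal markers had a median of -0.10 over 5 tested. Appl, the neuronal membrane protein gene among them, was at 3.38 to 6.79 CPM on day 2 and 8.01 to 17.6 CPM on day 3, while nSyb, a defining synaptic gene, stayed at 0.0973 to 3.38 CPM in all 6 libraries. Small nucleolar and nuclear RNAs had a median of -0.14 over 59 tested and mitochondrial transcripts of -0.31 over 12, and both lists differed more between the kinds of library than between the days. snoRNA:Psi18S-110, for example, was at 1.17 and 3.75 CPM in the libraries without spike-in and at 29.6 to 80.2 CPM in the other 4.

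Whether the change from day 2 to day 3 differed between the 2 kinds of library was tested as an interaction. No gene passed an adjusted p of 0.05 by edgeR or by DESeq2 (0.0%), and 115 of 6927 had an unadjusted p under 0.05 by edgeR (1.66%). With 1 library a day of the kind without spike-in, the simulated fit recovered 7% of 2-fold and 70% of 4-fold differences. The genes with the smallest p-values were Cp7Fb, mt:CoII and RpL39. The log2 change of Cp7Fb was -0.12 in the libraries with spike-in and -3.53 between those without. mt:CoII, a mitochondrial gene, had -0.63 and 0.56, and RpL39, a ribosomal protein gene, had -0.04 and 0.88. Among the 12 called genes the smallest interaction p was 0.0738, for Mmp2, by the same edgeR test.

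The other days place these genes in the first 8 days of adult life, as a description with CPM scaled over all 22 libraries. Day 2 had the lowest mean of the 8 days in 8 of the 10 genes that rose and the highest in both genes that fell, which the choice of the genes on day 2 and day 3 partly fixes. On day 4 both libraries were above every library of day 2 in 10 of 10 genes that rose, and on day 1 in 6 of 10. As these genes were chosen for low values on day 2, these counts too were partly fixed. No share over all genes is given beside them. CG5853 was at 58.2 and 88.7 CPM on day 1 and CG5958 at 75.1 and 95.4 CPM, beside means on day 3 of 75.7 and 75.3 CPM. In day 4 replicates 1 and 2, CG5853 was at 83.1 and 14.3 CPM and CG5958 at 70.7 and 21.4 CPM. Day 4 replicate 2, the lower for both genes, held 52 ERCC counts and is of the kind without spike-in. Both genes were lowest on day 2 among days 1 to 4. Both were low again later, CG5853 at 7.59 to 8.82 CPM on day 5 and CG5958 at 3.44 to 6.13 CPM on day 6. On day 7 the libraries held 93.7, 18.8 and 20.4 CPM of CG5853 and 92.0, 26.9 and 19.5 CPM of CG5958. From day 5 on the ovarioles were cut at a younger stage, and their counts were deposited apart from those of days 1 to 4. Age, dissection and set of libraries cannot be told apart there.

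In the later days sosie had a median of 226 CPM over the 12 libraries of days 5 to 8, from 37.3 to 402 CPM, beside 93.9 to 189 CPM on day 3. Mmp2 had a median of 25.3 CPM there, from 6.18 to 45.8 CPM. Vml had its highest mean on day 3, at 75.2 CPM, beside 10.3 CPM on day 1 and 33.6 CPM on day 4. Cp36 and Cp38 were higher again on day 4 than on day 3, at 84.0 and 143 CPM on average, and no library of days 5 to 8 passed 6.33 CPM for either gene.

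**Figure D5:**
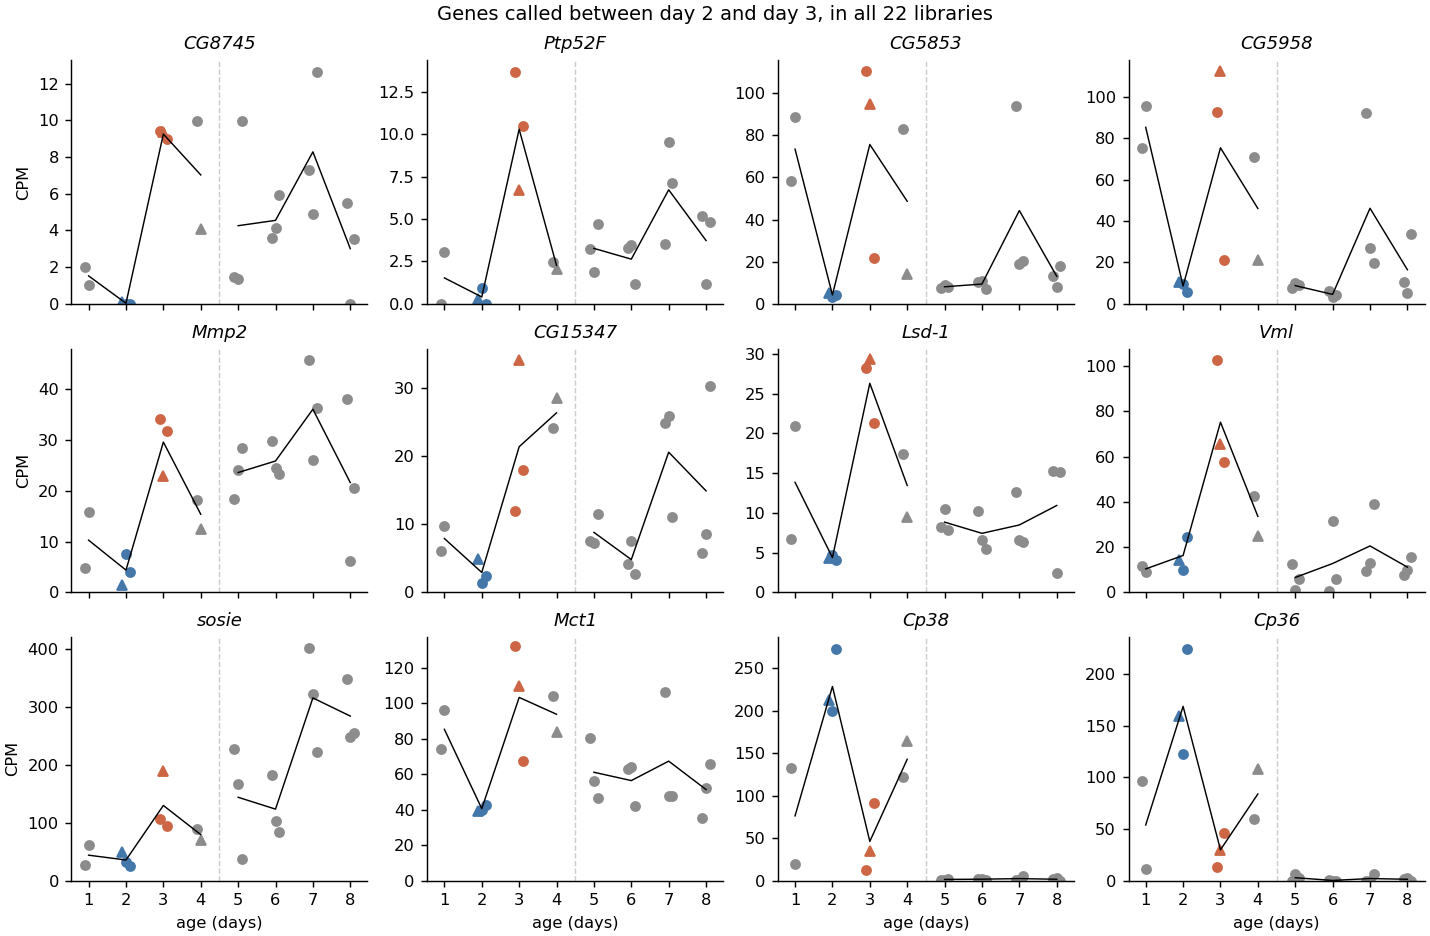
CPM of the 12 called genes (y axis, from 0) is plotted against age in days (x axis) for all 22 libraries, with day 2 in blue, day 3 in orange and other days in grey. Triangles mark the libraries with under 100 spike-in counts, lines join the means within days 1 to 4 and within days 5 to 8, and the dashed line marks the change of dissection; Cp36 and Cp38 peak on day 2 and are under 6.33 CPM after day 4.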

How the data were processed

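The authors deposited raw counts of reads per FlyBase gene for each library, not normalized. Tools named in the submitters' processing notes are HTSeq 0.6.1p1, HISAT2 2.0.1, CASAVA 1.8.2 and SAMtools 0.1.2; the deposited annotation is FlyBase 6.07, whose coordinates and symbols are used. Reads were 76 nt long. Natural transposon insertion features (1.51 to 4.11% of counts) and ERCC transcripts stayed out of library sizes and tests. From the counts, CPM with TMM library sizes were computed, and genes kept by the default filter (minimum count 10) were tested with edgeR 4.0.16 in R 4.3.3, with terms for day and for under 100 ERCC counts (3 residual degrees of freedom, biological coefficient of variation 17.0%, Benjamini-Hochberg threshold 0.05). The fit was tested on simulated data. The labels call the replicates biological, and no pair was the same library (chi-square per degree of freedom at least 4.28). Named genes were the 12 smallest p-values in each direction with a mean of at least 5 CPM, up to 4 members of each of 44 lists, the 3 smallest interaction p-values, and markers. The members and lists were chosen with earlier results of these data known. Counting intervals are 95% Clopper-Pearson intervals of the pooled counts and cover counting error only. Alternatives were DESeq2 1.42.0, other scaling and filters, other blocks, other sets of libraries, and leaving out each library.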

Additional observations from a re-analysis of the deposited data

Results flagged for a closer look

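Counts on natural transposon insertion features, which entered no comparison, made up 1.51 to 4.11% of the counts in the 6 libraries. The share was 3.17% in day 2 replicate 1 and 4.11% in day 3 replicate 2, the libraries without spike-in, and 1.51 to 1.88% in the other 4. It is listed because it is a signal outside the gene measurement.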

How the results depend on the processing

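All 12 called genes kept their direction under each of the 16 alternatives, as did the 13 further genes with the smallest p-values. The alternatives reuse the libraries in which these genes were chosen, so the kept direction was largely fixed in advance and is no independent check. The number called (12, with 10 higher and 2 lower) was 13 with DESeq2 size factors in edgeR, 14 with a filter of 1 CPM in 3 libraries, and 8, all higher, with all 10 libraries of days 1 to 4 (0 lower). It was 33 with DESeq2 (27 higher, 6 lower), 95 with no filter (69 higher, 26 lower), 2 without the block (2 higher, 0 lower), 4 with all 22 libraries (4 higher, 0 lower) and 0 in the 4 libraries with spike-in (0 higher, 0 lower, 264 at an unadjusted p under 0.05). Of the 12 genes, DESeq2 called 11, all but Cp38, and the fit on 22 libraries called 2. Leaving out 1 library gave 0 to 79 genes, 0 to 73 of them higher and 0 to 6 lower. Dropping either library without spike-in gave 0, dropping day 2 replicate 3 gave 2, and dropping day 3 replicate 3 gave 79. The main fit did not pair samples by replicate number. Deviations of same-numbered libraries from their day means correlated at -0.53, -0.38 and 0.12. These deviations include the difference between the kinds of library, so they cannot decide whether replicate numbers pair the samples. Day 2 replicate 1 and day 3 replicate 2, both without spike-in, correlated at 0.69. With the replicate block in place of the spike-in block 0 genes were called (0 higher, 0 lower), and with the replicate block and the spike-in block together 37 (29 higher, 8 lower). The interaction gave 0 genes except with no filter, where it gave 11. Of 84 list medians under 2 other fits, 3 moved past the spread between libraries, among them that of glycolysis to 0.05 in the 4 libraries with spike-in. The causes were not tested. Depth limits low genes, as 3 counts are up to 2.62 CPM.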
